A study of Mus musculus with 12 samples.

Results

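Hnf4a and 7 other transcription factors of the liver core network were followed in every library of a mouse liver RNA-sequencing study. They are Foxa1, Foxa2, Foxa3, Onecut1, Cebpa, Nr5a2 and Prox1. The 8 genes were taken by symbol from the deposited table of 35275 genes, each found once. The study asks what a high fat diet and loss of HNF4A do to hepatic transcription. Its 12 libraries form 4 groups of 3, which its design text calls biological replicates. KO HFD are mice labelled Hnf4a liver knockout on a high fat diet (HFD), WT HFD are wild-type mice on that diet, KO chow are labelled knockouts on vivarium chow, and WT chow are wild-type mice on that chow. Total RNA was extracted with Trizol from tissue given as liver. The sources used here do not give the deleted exons, the Cre driver, the age and sex of the mice or the length of feeding. The p-values below measure the spread between these samples.

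HNF4A is a nuclear receptor that keeps hepatocytes differentiated and binds the promoters of many genes for lipoproteins, coagulation factors and metabolic enzymes. FOXA1, FOXA2 and FOXA3 are forkhead pioneer factors that open liver enhancers, and ONECUT1 (also called HNF6) is a cut-homeodomain factor of liver and bile duct development. CEBPA is a leucine zipper factor of hepatocyte and fat cell differentiation, NR5A2 (LRH-1) is a nuclear receptor of bile acid and cholesterol genes, and PROX1 is a homeobox factor that acts as a corepressor of HNF4A and NR5A2. These factors are known to bind one another's regulatory regions, so that in adult liver they form a cross-regulated circuit.

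The 12 libraries held 15705196 to 20311766 reads on genes. Tissue identity was checked with marker lists. The summed level of 8 hepatocyte genes was 38302 to 69147 FPKM (fragment counts corrected for the length of the gene and the depth of the library) in 10 libraries, 29246 FPKM in WT chow 2 and 19.0 FPKM in WT chow 3. Brown fat genes summed to 10119 FPKM in WT chow 3, against 27.5 to 75.0 FPKM in the 10 libraries, and the share of reads on mitochondrial genes was 37.5% there, against 3.39 to 6.26% in the other 11. The library labelled WT chow 3 therefore went against its tissue label. Genes of the exocrine pancreas summed to 45.2 to 78.0 FPKM in KO HFD and to 0 to 5.03 FPKM in the other groups. The part of these transcripts in the results below was not tested. Results are given for all 12 libraries and for the 10 left without WT chow 2 and WT chow 3, a choice made with earlier results of these data known. WT chow 2 still held liver transcripts, with Ahsg at 6269 and Fgb at 3163 FPKM, though Alb was low at 7604 FPKM. Brown fat genes summed to 126 FPKM in WT chow 2. Leaving WT chow 2 out followed no stated marker threshold and keeps only 1 library in WT chow. In whole tissue, fewer cells of a type and less RNA per cell cannot be told apart.

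Hnf4a (ENSMUSG00000017950) spans chr2:163506808-163572910 on the plus strand of GRCm38. The GENCODE M21 annotation gives it transcripts from an upstream start (P2, known for fetal liver and pancreas) and from a downstream start (P1, known for adult liver). The upstream protein-coding transcript has 3 annotated exons and begins at base 163506808, and the downstream ones, of 10 exons each, begin at bases 163547187 and 163547188. The deposited value is 1 per gene and cannot separate the starts. Promoters are among the regulatory regions that such factors are known to bind, but not every window shown held a match to the motifs searched. The promoter windows shown are those of Onecut1 and of 4 factors, Hnf4a, Foxa1, Foxa2 (1 of 3 windows) and Foxa3. The correlation of these 4 with Onecut1 across libraries passed an adjusted permutation p of 0.05. Each sequence is the RefSeq window of 300 bases on GRCm38.p6, 250 before and 50 after the start, written 5′ to 3′ on the gene's own strand. Capitals mark matches to the motifs searched.
Hnf4a upstream start, chr2:163506607-163506906, plus strand: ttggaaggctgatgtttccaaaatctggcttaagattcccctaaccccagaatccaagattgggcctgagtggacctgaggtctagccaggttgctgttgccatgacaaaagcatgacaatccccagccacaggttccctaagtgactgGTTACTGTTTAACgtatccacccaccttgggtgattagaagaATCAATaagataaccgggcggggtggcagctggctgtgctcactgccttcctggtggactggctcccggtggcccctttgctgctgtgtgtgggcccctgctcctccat
Hnf4a downstream start, chr2:163546905-163547204, plus strand: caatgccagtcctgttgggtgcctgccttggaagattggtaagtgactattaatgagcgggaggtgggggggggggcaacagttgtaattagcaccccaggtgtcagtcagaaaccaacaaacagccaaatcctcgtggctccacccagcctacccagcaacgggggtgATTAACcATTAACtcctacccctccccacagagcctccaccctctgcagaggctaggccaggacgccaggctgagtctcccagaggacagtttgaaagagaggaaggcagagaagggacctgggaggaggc
Foxa1, chr12:57546062-57546361, minus strand: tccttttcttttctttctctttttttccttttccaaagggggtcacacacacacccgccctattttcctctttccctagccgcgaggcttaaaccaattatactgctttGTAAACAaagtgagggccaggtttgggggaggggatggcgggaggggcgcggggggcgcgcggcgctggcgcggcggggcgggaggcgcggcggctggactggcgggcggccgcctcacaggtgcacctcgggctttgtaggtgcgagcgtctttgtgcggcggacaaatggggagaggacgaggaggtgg
Foxa2, first of 3 windows, chr2:148046920-148047219, minus strand: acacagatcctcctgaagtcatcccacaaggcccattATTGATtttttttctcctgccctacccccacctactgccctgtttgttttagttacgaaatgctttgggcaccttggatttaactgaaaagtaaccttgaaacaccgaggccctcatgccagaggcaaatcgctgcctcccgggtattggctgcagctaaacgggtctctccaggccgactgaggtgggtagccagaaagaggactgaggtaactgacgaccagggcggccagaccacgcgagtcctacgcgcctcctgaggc
Foxa3, chr7:19023490-19023789, minus strand: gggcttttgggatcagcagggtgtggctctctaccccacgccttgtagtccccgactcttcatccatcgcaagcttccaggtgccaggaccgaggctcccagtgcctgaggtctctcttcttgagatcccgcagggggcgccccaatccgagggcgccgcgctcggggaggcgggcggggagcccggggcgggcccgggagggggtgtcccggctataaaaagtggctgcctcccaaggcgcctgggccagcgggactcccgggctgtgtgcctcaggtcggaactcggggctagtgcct
Onecut1, chr9:74861671-74861970, plus strand: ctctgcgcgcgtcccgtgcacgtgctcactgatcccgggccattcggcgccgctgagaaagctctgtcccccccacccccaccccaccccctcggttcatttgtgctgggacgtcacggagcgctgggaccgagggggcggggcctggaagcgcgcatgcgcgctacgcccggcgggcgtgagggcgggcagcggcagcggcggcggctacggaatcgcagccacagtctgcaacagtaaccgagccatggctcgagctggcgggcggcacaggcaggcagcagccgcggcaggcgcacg

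All 8 genes matched the promoter table, with 13 windows in all, and 8 motifs were searched on both strands. The upstream Hnf4a window held GTTACTGTTTAAC, a match to the 13-letter HNF1 motif, with its first base at position −101 when the start is counted as 0. This motif occurred in 0.228% of the 32851 promoter windows of the table. The same window held the HNF6 motif ATCAAT at position −59, which 7.54% of all windows held. The downstream Hnf4a window held 2 copies of the short HNF1 motif GTTAAT, read as ATTAAC on the printed strand, at positions −81 and −74, and 7.10% of all windows held at least one. A long HNF1 match can contain the short one, but here no matches overlapped. The Foxa1 window held the forkhead motif TGTTTAC on the opposite strand at position −141 (3.65% of windows), and the printed Foxa2 window held ATCAAT on the opposite strand at position −213. The Foxa3 and Onecut1 windows held no match. Among the windows not printed, 1 of Prox1 held the forkhead variant TGTTTGC at position −120 (5.07% of windows), 1 of Nr5a2 held GTTAAT at position −236 and another of Foxa2 held its reverse at position −176. The motifs CAAAGTCC (HNF4A, 1.42% of windows), CAAGGTCA (NR5A2, 1.56%) and TTGCGNAA (CEBP, 0.798%) matched none of the 13 windows. A match describes letters and is not a measured site.

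Hnf4a stood at 108, 98.8 and 138 FPKM in KO HFD and at 133, 116 and 120 FPKM in WT HFD. On chow it was 158, 132 and 130 FPKM in KO chow and 126, 75.8 and 0.0973 FPKM in WT chow. The HFD groups overlapped, and on chow all 3 libraries labelled KO lay above all 3 labelled WT. The 6 libraries labelled KO carried 8265 to 11655 recovered Hnf4a reads each, so counting error was small in them, while WT chow 3 carried 7. The targeted gene thus did not follow the genotype labels, and every genotype difference below is one between libraries so labelled. Among protein-coding genes Hnf4a ranked at percentile 95.7 to 98.0 in 11 libraries and at percentile 39.4 in WT chow 3.

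Averaged over the diets, the log2 difference of Hnf4a between libraries labelled KO and those labelled WT was 1.28, made of −0.11 on HFD and 2.67 on chow. An exact two-sided permutation of genotype labels within diet gave p = 0.24 over 400 arrangements, where the smallest possible is 0.005. Without WT chow 2 and 3 the difference was 0.02 (exact permutation p = 0.875, 80 arrangements). In the limma fit of 10 libraries, KO HFD held 92.6% of the WT HFD level (95% interval 72.3 to 119%, limma adjusted p = 0.780). KO chow held 111% of the level of WT chow 1 (78.0 to 157%), which stands alone in that fit and borrows the spread of the other groups. Both intervals are on the log2(FPKM + 1) scale. The HFD interval shows the range of whole-gene levels these libraries allow, while the chow interval rests on 1 library labelled WT. Reads from exons outside the deletion, of unstated position, would count in these values.

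Hnf4a was also set against the mean of the other 7 factors in the same library. This log2 ratio was 3.14, 3.09 and 3.17 in KO HFD and 2.96, 3.18 and 3.13 in WT HFD. It was 2.66, 3.04 and 3.04 in KO chow and 3.35, 3.32 and −0.86 in WT chow. It ran from 2.66 to 3.35 in the 11 libraries other than WT chow 3, and it sets Hnf4a against a mean of factors that differed among themselves. In WT chow 3 Cebpa had 4478 reads, Hnf4a 7 and the remaining factors 0 to 5, so the ratio there mostly reflects Cebpa. The KO minus WT difference of the ratio averaged 0.51 over the diets (exact permutation p = 0.935) and −0.19 without WT chow 2 and 3 (exact permutation p = 0.412), and leaving out WT chow 3 alone also gave −0.19 (exact permutation p = 0.17). Leaving out WT chow 2 alone gave 0.86 (exact permutation p = 0.335), so the sign rested on WT chow 3.

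Hnf4aos, the antisense transcript of the locus (chr2:163493807-163541720, minus strand), overlaps the upstream Hnf4a transcript. No source used here states the strand setting of the counting, so reads of both genes in their overlap cannot be told apart. Hnf4aos stood at 3.68, 6.59 and 8.30 FPKM in KO HFD, against 11.8, 13.2 and 5.02 FPKM in WT HFD. KO chow held 8.78, 6.69 and 8.80 FPKM and WT chow held 14.2, 0.127 and 0 FPKM. Both genotype pairs overlapped. In WT chow 2 the antisense gene had 2 reads, 1.27% of the WT HFD mean (95% Poisson interval 0.153 to 4.58%), where Hnf4a itself kept 61.7%.

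Foxa1, the least abundant of the 3 forkhead genes, stood at 4.79, 3.83 and 7.66 FPKM in KO HFD and 6.79, 5.09 and 5.35 FPKM in WT HFD. The chow-fed libraries had 12.8, 4.82 and 6.27 FPKM in KO chow, against 4.14, 3.23 and 0.0761 FPKM in WT chow. KO chow 1 was highest and the WT chow libraries were the lowest but for KO HFD 2, which fell between WT chow 1 and WT chow 2.

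Foxa2, which also acts in hepatic lipid metabolism, stood at 13.2, 10.9 and 14.8 FPKM in KO HFD and 21.8, 11.2 and 11.6 FPKM in WT HFD. With chow, its level was 22.7, 11.7 and 12.3 FPKM in KO chow and 9.99, 8.23 and 0 FPKM in WT chow. WT HFD 1 and KO chow 1 stood apart at the top, and each WT chow library lay below all 9 others.

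Foxa3, the most abundant of the 3 in adult liver here, stood at 24.7, 23.2 and 38.8 FPKM in KO HFD and 25.3, 19.1 and 29.2 FPKM in WT HFD. On chow it was 57.6, 19.9 and 30.3 FPKM in KO chow and 16.5, 36.1 and 0 FPKM in WT chow. All groups overlapped for Foxa3, and WT chow 2 was the third highest of the 12. In the 10 libraries Foxa3 made up 46.9 to 63.4% of the summed forkhead level, Foxa2 24.1 to 40.5% and Foxa1 10.1 to 14.4%. In WT chow 2 the shares were 75.9% for Foxa3, 17.3% for Foxa2 and 6.79% for Foxa1, each outside the range of the 10.

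Onecut1 was the lowest of the 8 genes and the most variable. It stood at 0.767, 0.277 and 2.83 FPKM in KO HFD and 3.04, 0.405 and 0.733 FPKM in WT HFD. KO chow held 7.65, 1.51 and 1.75 FPKM and WT chow held 0.467, 0.134 and 0.0153 FPKM. In KO HFD, WT HFD and KO chow, 1 library each stood well above its partners. These values rested on 21 to 489 reads in the 10 libraries. Its paralog Onecut2, a factor of the same family, spread far less, at 4.38, 4.15 and 4.21 FPKM in KO HFD against 9.28, 7.71 and 6.69 FPKM in KO chow. It was 4.83, 5.04 and 4.91 FPKM in WT HFD against 5.80, 2.50 and 0.00453 FPKM in WT chow.

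Cebpa was the most abundant factor, at 193, 233 and 252 FPKM in KO HFD and 327, 229 and 209 FPKM in WT HFD. The chow-fed libraries had 304, 235 and 278 FPKM in KO chow, against 252, 79.9 and 103 FPKM in WT chow. All groups overlapped. WT chow 3, at 103 FPKM, kept Cebpa near the level of WT chow 2, while the other 7 factors there had 0 to 7 reads. Adipocyte genes, among which Cebpa is also expressed, summed to 9250 FPKM in that library against 6.86 to 66.7 FPKM in the 10. The part of those cells in the Cebpa value was not tested.

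Nr5a2 stood at 6.86, 7.07 and 5.39 FPKM in KO HFD and 8.79, 9.80 and 8.16 FPKM in WT HFD. With chow, its level was 10.9, 13.9 and 7.64 FPKM in KO chow and 10.2, 2.81 and 0.0656 FPKM in WT chow. All 3 KO HFD libraries lay below all WT HFD and all KO chow libraries.

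Prox1 stood at 6.46, 8.07 and 5.09 FPKM in KO HFD and 6.52, 10.3 and 11.1 FPKM in WT HFD. On chow it was 9.81, 19.8 and 11.5 FPKM in KO chow and 10.4, 2.21 and 0.0383 FPKM in WT chow. KO HFD lay wholly below KO chow and overlapped WT HFD by KO HFD 2 only. KO chow 2 had the highest Prox1 and the highest Nr5a2 of the 12 libraries, while its Onecut1 and forkhead levels lay inside the range of the other groups. Prox1 also marks lymphatic endothelium, and the summed level of the endothelial list was 23.3 to 26.1 FPKM in KO HFD and 19.9 to 31.3 FPKM in KO chow. Its part in the Prox1 level was not tested.

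**Figure D1:**
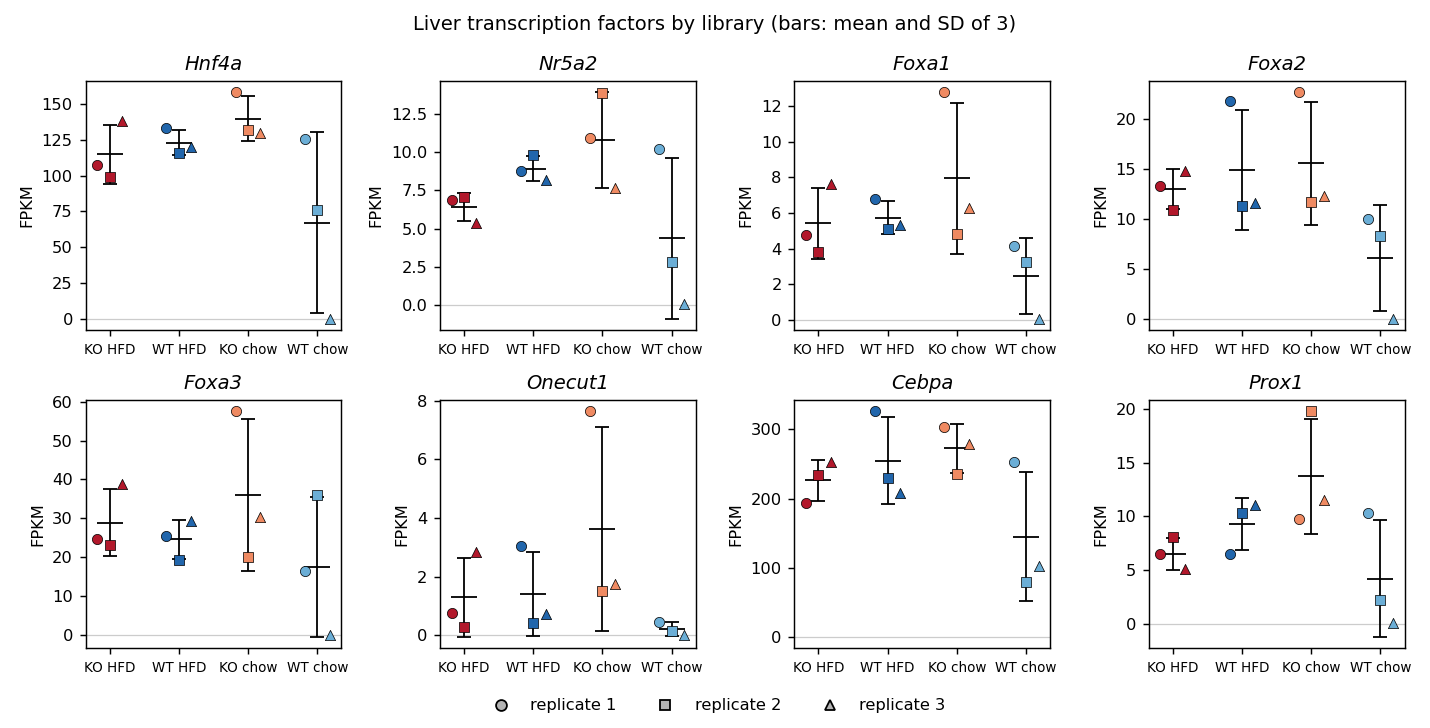
FPKM of the 8 factors in each library, with KO HFD, WT HFD, KO chow and WT chow on the horizontal axis, a symbol for each replicate number and bars for the mean and SD of 3. WT chow ran for Hnf4a between 0.0973 and 126 FPKM, and single libraries of KO chow and WT HFD stood above their partners for Onecut1 and Foxa2.

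In FPKM, a per-length scale that allows levels of different genes to be compared, the median order over the 10 libraries was Cebpa (244), Hnf4a (128), Foxa3 (25.0), Foxa2 (12.0), Prox1 (10.1), Nr5a2 (8.48), Foxa1 (5.22) and Onecut1 (1.14). The first 3 steps of this order and the last held in 10 of 10 libraries. Foxa2 exceeded Prox1 in 8 of 10, Prox1 exceeded Nr5a2 in 6 of 10 and Nr5a2 exceeded Foxa1 in 8 of 10, so these neighbours were not separated by their spread.

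For KO HFD against WT HFD, the question of what the knockout label does under high fat feeding, 0 of 8 factors passed at an adjusted p of 0.05 (limma, Benjamini-Hochberg over 12251 genes). In that comparison 0.155% of all genes passed with 12 libraries and 0.18% with 10, where again 0 factors passed. Nr5a2 came nearest, at 74.8% of the WT HFD level (log2 difference −0.42, SE 0.20, 95% interval 54.9 to 102%, limma adjusted p = 0.419 with 10 libraries). It was the only factor whose groups did not overlap in the lower direction, as 12.4% of all genes did, and 0 factors did so in the higher direction against 7.37% of genes. Prox1 held 73.7% (47.8 to 114%), Cebpa 90.0% (65.8 to 123%), Foxa1 93.0% (56.4 to 153%) and Foxa2 91.4% (57.4 to 145%). Foxa3 held 116% (66.6 to 201%) and Onecut1 95.8% (38.5 to 239%).

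For KO chow against WT chow, 0 of 8 passed with 12 libraries, where 0% of all genes passed and 2584 genes had an unadjusted p under 0.05. The estimates were large all the same, with log2 differences between 1.08 (SE 0.43) for Cebpa and 2.67 (SE 1.36) for Hnf4a, and limma adjusted p between 0.195 and 0.289. Hnf4a, Foxa1, Foxa2 and Onecut1 were higher in every KO chow library than in any WT chow library, against 12.4% of all genes, and 0 factors were lower in this way against 4.43%. Leaving out WT chow 2 alone gave 0.74 for Cebpa to 3.57 for Hnf4a, and leaving out WT chow 3 alone gave 0.41 for Foxa3 to 1.60 for Onecut1. With 10 libraries, where WT chow 1 stands alone and borrows the spread of the other groups, 0 factors and 0.00816% of genes passed, and all 8 estimates were still positive and smaller. They were 0.04 (SE 0.28) for Nr5a2, 0.10 (SE 0.28) for Cebpa, 0.15 (SE 0.22) for Hnf4a and 0.32 (SE 0.39) for Prox1. They were 0.53 (SE 0.42) for Foxa2, 0.70 (SE 0.45) for Foxa1 and 0.95 (SE 0.50) for Foxa3, and Onecut1 changed least, at 1.41 (SE 0.83) beside 1.71 (SE 0.56) with 12 libraries. Without WT chow 1 instead, Prox1, Nr5a2, Cebpa, Foxa1 and Foxa2 passed with higher values in KO chow, by 2.95, 2.52, 1.57, 1.97 and 2.39 on the log2 scale (limma adjusted p from 0.00178 to 0.0433). In that fit 16.6% of all genes passed as higher.

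For HFD against chow in libraries labelled KO, 0 of 8 factors passed with 12 libraries, where 0.155% of genes passed, and 0 of 8 with 10, where 7.76% passed, 6.24% as lower and 1.52% as higher. All 8 estimates were negative, with a median log2 difference of −0.36 beside −0.06 for all genes tested. The share of all genes with a negative estimate was not computed. The common sign depended on KO chow 1. With 10 libraries and without KO chow 1, Foxa2 was at 0.09, Foxa3 at 0.19, Foxa1 at −0.06 and Onecut1 at −0.36. Prox1 (−1.12), Nr5a2 (−0.62), Hnf4a (−0.20) and Cebpa (−0.18) stayed negative in that fit. Prox1 in KO HFD was at 52.6% of the KO chow level (log2 difference −0.93, SE 0.28, 95% interval 34.1 to 81.2%, limma adjusted p = 0.068 with 10 libraries). Nr5a2 was at 64.2% (log2 difference −0.64, SE 0.20, 47.2 to 87.5%, limma adjusted p = 0.074). These were the factors with no overlap between the groups, both lower, against 21.6% of all genes, and 0 were higher in this way against 9.98%. Hnf4a held 81.7% (63.8 to 105%) and Onecut1 52.5% (21.1 to 131%). The percentages of level in this comparison are ratios of FPKM + 1, which understates changes of low genes. In plain FPKM, Onecut1 averaged 1.29 in KO HFD and 3.64 in KO chow. The call on Nr5a2 and Prox1 depended on the scaling. Rescaled to TPM with 10 libraries, Prox1 (−1.15, limma adjusted p = 0.0324) and Nr5a2 (−0.85, limma adjusted p = 0.0339) passed as lower, as did 17% of all genes, whose median moved to −0.23. Without KO chow 3, Nr5a2 passed (−0.85, limma adjusted p = 0.0228), as did 9.3% of genes in the lower direction.

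For HFD against chow in libraries labelled WT, 0 of 8 passed with 12 libraries, where 0% of genes passed and 1807 had an unadjusted p under 0.05. Foxa1 and Foxa2 were higher in every WT HFD library than in any WT chow library, against 6.82% of all genes, and 0 factors were lower so against 4.35%. The 12-library estimates were 2.49 (SE 1.36) for Hnf4a, 1.59 (SE 0.67) for Prox1 and 1.47 (SE 0.64) for Nr5a2. With 10 libraries they were −0.03 (SE 0.22), −0.17 (SE 0.39) and −0.18 (SE 0.28), so their sign turned, and 0 factors and 0.00816% of genes passed. Without WT chow 1, Prox1, Nr5a2 and Cebpa passed as higher in WT HFD, by 2.47, 2.30 and 1.45 on the log2 scale (limma adjusted p of 0.00522, 0.00632 and 0.0111), as did 13.1% of genes. The interaction of genotype and diet gave 0 of 8 factors past the threshold with 12 libraries (0.122% of genes) and with 10 (0.0816%). Without WT chow 1 the same 3 passed it with negative values (−3.39, −2.93 and −1.72, limma adjusted p from 0.0055 to 0.0217), as did 13.2% of genes.

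**Figure D2:**
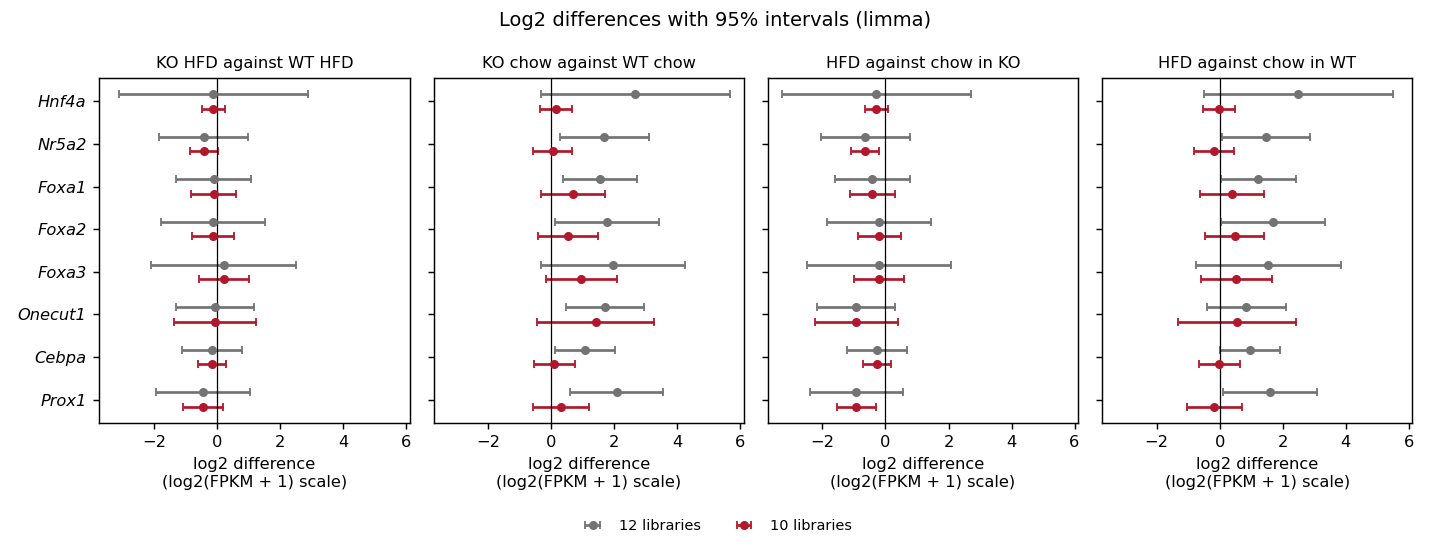
Log2 differences of the 8 factors with 95% intervals in 4 comparisons, from the limma fits of 12 libraries (grey) and of 10 (red), on the log2(FPKM + 1) scale. Intervals narrowed without WT chow 2 and 3 except for Onecut1, and the estimates for KO chow against WT chow and for HFD against chow in WT moved towards 0.

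The 3 libraries labelled WT chow were therefore described one by one, each as a percentage of the WT HFD mean with an exact Poisson interval that covers counting error only. WT chow 1 held 102% for Hnf4a, 98.9% for Cebpa, 114% for Nr5a2 and 111% for Prox1, with Foxa1, Foxa2 and Foxa3 at 72.1, 67.1 and 67.0% and Onecut1 at 33.5%. WT chow 2 held 61.7% for Hnf4a, 56.2% for Foxa1, 55.3% for Foxa2, 31.5% for Nr5a2, 31.3% for Cebpa and 23.7% for Prox1. Its Onecut1 was at 9.63% (4.62 to 17.7%, 10 reads), while Foxa3 was at 147% (139 to 155%).

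The factors of WT chow 2 were thus not lowered in 1 proportion, and Alb, the serum albumin gene, was at 22.1% there. WT chow 3 held 0.0791% for Hnf4a (0.0318 to 0.163%), 1.32% for Foxa1, 1.10% for Onecut1, 0.735% for Nr5a2 and 0.411% for Prox1. Foxa2 and Foxa3 had no read there, with intervals that reach 0.706% and 0.447%, while 3 reads would stand at 0.574% and 0.363%. Cebpa was at 40.4% (39.3 to 41.6%) and Alb at 0.0347%.

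**Figure D3:**
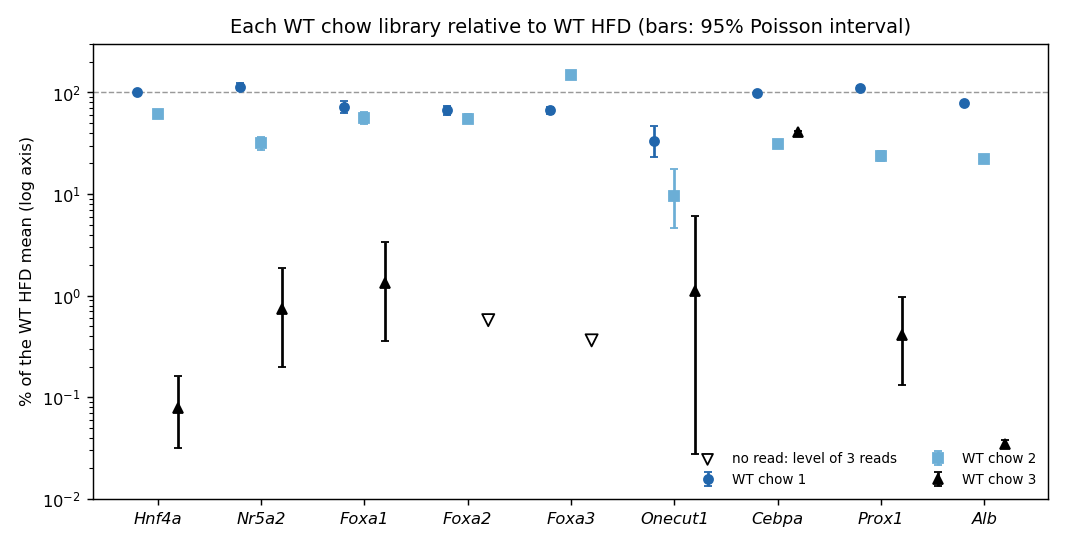
Level of the 8 factors and Alb in each WT chow library as a percentage of the WT HFD mean, on a log axis, with 95% Poisson intervals. Open triangles mark genes with no read, drawn at the level of 3 reads. Cebpa was at 40.4% in WT chow 3 where Hnf4a was at 0.0791%, and Foxa3 was at 147% in WT chow 2.

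The factors differed in how much they spread between libraries of the same group. Over the 10 libraries, the within-group SD on the log2 scale was 0.18 for Hnf4a, below the median of all tested genes (0.22), and 0.25 for Cebpa and 0.26 for Nr5a2. It was 0.39 for Prox1, 0.43 for Foxa2, 0.46 for Foxa1, 0.52 for Foxa3 and 0.88 for Onecut1. Hnf4a lay at percentile 32.8 of the tested genes for this spread, and Onecut1 at percentile 98.3.

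The factors were also compared by their correlation across libraries. These correlations hold group differences and within-group spread together, and the permutations did not keep the groups apart. Of the 28 pairs, 8 had a Pearson correlation of log2(FPKM + 1) over the 10 libraries with an adjusted permutation p under 0.05, all positive. The share of all gene pairs that would pass was not computed, so this count cannot be called particular to the factors. By r, partners in these pairs ranked from 1 (Onecut1 for Foxa1) to 841 (Prox1 for Nr5a2) among 10121 protein-coding genes. Foxa1 and Onecut1 had r = 0.948 (rho 0.855, permutation p = 0.00532 adjusted over 28 pairs), and 0.841 without the 2 libraries farthest on Foxa1. Onecut1 was the gene most like Foxa1 among 10121 protein-coding genes, and Foxa1 the most like Onecut1. Foxa2 and Onecut1 had r = 0.889 (rho 0.927, adjusted permutation p = 0.00532, 0.780 without the 2 farthest). Hnf4a and Onecut1 had r = 0.880 (rho 0.891, adjusted permutation p = 0.00532, 0.760 without the 2 farthest), and Hnf4a and Foxa1 had r = 0.842 (rho 0.830, adjusted permutation p = 0.00974, 0.597 without the 2 farthest).

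The remaining pairs past that value were Foxa1 with Foxa3 (r = 0.898, rho 0.818, 0.588 without the 2 farthest), Foxa1 with Foxa2 (0.841, rho 0.818, 0.740) and Foxa3 with Onecut1 (0.822, rho 0.745, 0.417). Nr5a2 and Prox1 had r = 0.813 (rho 0.624, adjusted permutation p = 0.0194), which was 0.396 without KO chow 2 and KO HFD 3. This pair and Foxa3 with Onecut1 thus rested largely on the 2 farthest libraries. For rho these pairs did not pass, with adjusted permutation p of 0.128 and 0.0542. By Pearson no pair with Cebpa passed (adjusted permutation p from 0.0606 to 0.865), though Hnf4a with Cebpa passed for rho (adjusted permutation p = 0.0288). Hnf4a with Foxa2 and with Foxa3 did not pass by Pearson either, with adjusted permutation p of 0.0936 and 0.110. Deviations from the group means gave r = 0.936 for Foxa1 with Onecut1, 0.931 for Hnf4a with Onecut1 and 0.579 for Nr5a2 with Prox1. The first 2 relations thus held within groups, though no p-value was computed for deviations. Prox1 ran the other way within groups, at −0.84 with Onecut1 and with Foxa1, although over the 10 libraries these were −0.14 and −0.20. The libraries share their depth scaling, so these values describe the libraries.

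**Figure D4:**
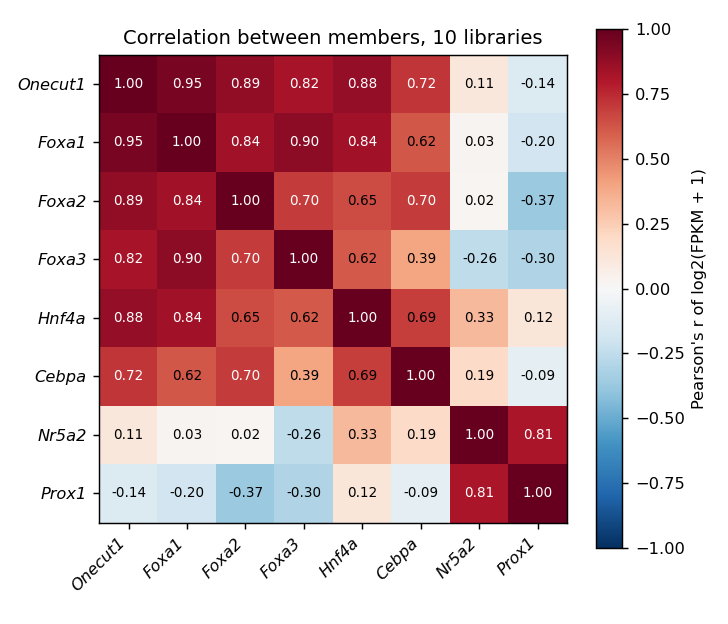
Pearson correlation of log2(FPKM + 1) between the 8 factors over 10 libraries, with red for positive and blue for negative values. Onecut1, the 3 forkhead genes, Hnf4a and Cebpa form a block of positive values, and Nr5a2 with Prox1, at 0.81, form another.

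Among the genes most like a member was Cish, an inhibitor of cytokine receptor signalling that STAT5 induces, with r = 0.917 to Foxa2. Cish stood at 0.634, 0.255 and 3.51 FPKM in KO HFD and 3.96, 0.0731 and 0.351 FPKM in WT HFD. KO chow held 4.35, 0.839 and 0.583 FPKM and WT chow held 0.255, 0.271 and 1.65 FPKM. Its highest library was KO HFD 3 in KO HFD, WT HFD 1 in WT HFD and KO chow 1 in KO chow. These were also the highest of their groups for Onecut1 and Foxa1, and for Foxa2 and Hnf4a. Cish was chosen for its likeness to Foxa2 over these same libraries, so sharing their high libraries follows from that choice.

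Bcl6, a transcriptional repressor chosen after its values were seen, stood at 6.37, 11.1 and 2.69 FPKM in KO HFD and 2.31, 13.5 and 13.9 FPKM in WT HFD. The chow-fed libraries had 3.21, 24.3 and 12.2 FPKM in KO chow, against 15.4, 2.05 and 23.0 FPKM in WT chow. KO HFD 3, WT HFD 1 and KO chow 1, the highest libraries of their groups for Onecut1, were the lowest of those groups for Bcl6. Its r with Foxa2 over the 10 libraries was −0.85. As Bcl6 was chosen on these values, its opposite pattern adds no separate support. The labels used here set these 3 libraries apart in no way.

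**Figure D5:**
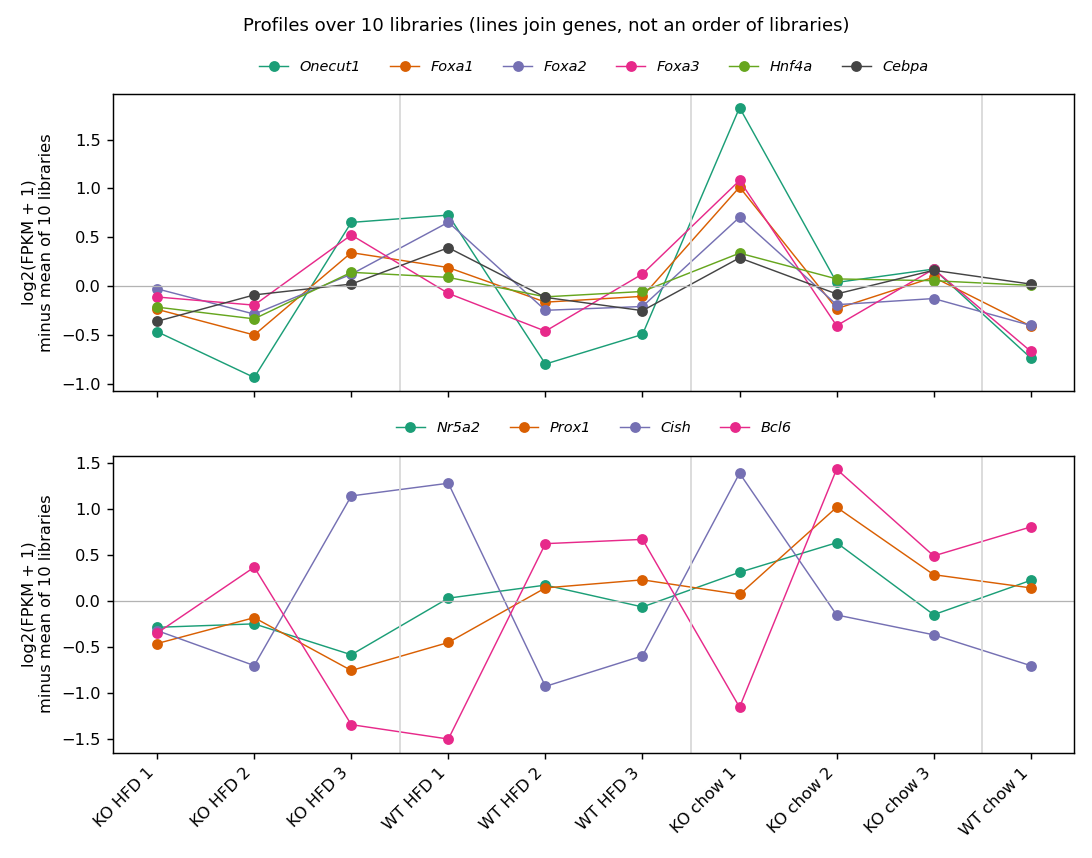
Log2(FPKM + 1) of each factor minus its mean over 10 libraries, with Cish and Bcl6 in the lower panel; libraries run along the horizontal axis and lines join the points of a gene. Onecut1, Foxa1 and Foxa2 peak in KO chow 1 and are high in KO HFD 3 and WT HFD 1, where Cish is high and Bcl6 is low. Cish and Bcl6 were both chosen on these same libraries.

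The genes most like each of the other factors over the 10 libraries were Pomt2 (r = 0.947), Otud3 (0.940), Trabd (0.937), Kdelr2 (0.920) and St7l (0.918) for Hnf4a. They were Cyp39a1 (0.942) for Foxa2, Phospho2 (0.943) and Dnajb1 (0.921) for Foxa3, B4galt1 (0.932) after Foxa1 for Onecut1, and Kdelr2 (0.919) after Onecut1 for Foxa1. Kcmf1 (0.933) and Tmem183a (0.905) were most like Cebpa, Tmem131 (0.976) and Prkacb (0.961) most like Nr5a2, and Klf12 (0.963) and Golim4 (0.954) most like Prox1. These are the highest values among 10121 genes ranked over only 10 libraries. No p-value was computed for them, so the ranking is a description.

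The paralogs and other liver factors were read from lists. Of 29 tested among 30 other liver transcription factors, 0 passed in KO HFD against WT HFD. Of all genes, 0.155% passed there with 12 libraries and 0.18% with 10. The median log2 difference of the 29 was −0.21 beside −0.03 for all genes. Creb3l3, a membrane-bound activator of fasting and lipid genes, stood at 223, 183 and 212 FPKM in KO HFD and 197, 205 and 235 FPKM in WT HFD. Xbp1, a factor of the secretory stress response, stood at 127, 91.6 and 166 FPKM in KO HFD and 161, 100 and 119 FPKM in WT HFD. Both overlapped. In HFD against chow in KO, 3 of the 29 and 1 of 6 tested paralogs fell in the fit of 10 libraries, where 6.24% of all genes did, and 0 passed in the fit of 12. Of these, Ppara, the fatty acid-sensing nuclear receptor, averaged 11.8 ± 7.08 FPKM in KO HFD and 31.5 ± 8.38 FPKM in KO chow (SD, n = 3 each; log2 difference −1.45, limma adjusted p = 0.0459).

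Tbx3, a T-box factor of hepatoblast growth, averaged 3.44 ± 0.672 FPKM in KO HFD and 7.37 ± 1.55 FPKM in KO chow (log2 difference −0.91, limma adjusted p = 0.0411). Nr2f2, an orphan nuclear receptor, averaged 5.88 ± 0.857 FPKM in KO HFD and 10.05 ± 1.14 FPKM in KO chow (−0.69, limma adjusted p = 0.0492), and Onecut2 averaged 4.25 ± 0.121 FPKM in KO HFD and 7.89 ± 1.31 FPKM in KO chow (−0.75, limma adjusted p = 0.0306). The count of all genes called there was 951, and leaving out 1 further library moved it to between 17 (without KO chow 2) and 1535 (without KO chow 3), so these calls depend on single libraries. Hnf4g, the close paralog of Hnf4a, was below 0.5 FPKM in every library.

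Known HNF4A target genes were counted in the same way. Of 37 tested, 0 passed in KO HFD against WT HFD, where 0.155% of all genes passed with 12 libraries and 0.18% with 10. Among the 37, 22 lay below and 15 above 0, with a median log2 difference of −0.05. On chow the median was 3.30 with 12 libraries and −0.01 with 10, beside 0.08 and 0.06 for all genes. With 12 libraries 0 passed there, as did 0% of all genes. Apoa1, the main apolipoprotein of HDL, stood at 10338, 10306 and 14430 FPKM in KO HFD and 14984, 11589 and 11175 FPKM in WT HFD. Ttr, the thyroxine carrier, stood at 5907, 7515 and 6249 FPKM in KO HFD and 7266, 7292 and 5693 FPKM in WT HFD. Both overlapped. In HFD against chow in KO, 1 of the 37 fell with 10 libraries, where 6.24% of all genes did and where the calls depended on single libraries. It was Mttp, which loads lipid onto apolipoprotein B, at 23.9, 32.3 and 33.5 FPKM in KO HFD and 58.5, 51.9 and 44.0 FPKM in KO chow (−0.77, limma adjusted p = 0.0371).

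For 10 tested FOXA targets, 10 genes linked to NR5A2 and PROX1 and 11 CEBPA targets, 0 passed in any comparison with 12 libraries. At most 0.155% of all genes passed there. With 10 libraries 0 passed in KO HFD against WT HFD (0.18% of all genes) and in HFD against chow in KO (7.76%). For lists this short, 0 lies near these shares and does not show that the genes were unchanged. Their median log2 differences for KO HFD against WT HFD were 0.04, −0.11 and 0.07, beside −0.03 for all genes. Alb, which FOXA factors and CEBPA are both known to drive, stood at 12811, 15115 and 21127 FPKM in KO HFD and 31849, 29905 and 41503 FPKM in WT HFD. With chow, its level was 18055, 20343 and 15438 FPKM in KO chow and 26888, 7604 and 11.9 FPKM in WT chow. All 6 libraries labelled KO lay below WT chow 1 and all of WT HFD, while WT chow 2 and 3 were lower still. The difference on HFD was −1.09 (SE 0.33, limma adjusted p = 0.369 with 10 libraries) and did not pass. Cyp2e1, an alcohol-oxidizing P450, stood at 2073, 3597 and 3769 FPKM in KO HFD and 6016, 4589 and 2967 FPKM in WT HFD, with overlap.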

How the data were processed

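The deposited table holds FPKM per gene, made by the authors, beside gene length, position and type. The tools named in the submitters' processing notes are DESeq2 (version 2), HTSeq 0.6.1, STAR, TopHat and CASAVA, with the builds mm10 and GRCm38. No source used here says which of them made the FPKM, or gives the annotation release or strand setting. FPKM times gene length gave whole reads (tolerance 0.1) for at least 99.95% of values, and these recovered reads give depths, Poisson intervals at 95% and floors of 3 reads, which cover counting error only. Every value column was mapped to a sample. No pair of same-group libraries looked like a repeat, with a chi-square per gene of 36.0 to 1234 on average.

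Values were taken as log2(FPKM + 1), which understates changes of low genes. The 12251 genes with a mean of at least 0.5 FPKM, among them all 8 members, entered a limma 3.58.1 fit of 4 group means with trended empirical Bayes moderation under R 4.3.3. Benjamini-Hochberg adjustment ran over all of them, with a threshold of 0.05. Fits of 10 libraries left out WT chow 2 and 3, and fits of 9 also KO HFD 1. Hnf4a was compared by exact permutation of genotype within diet, and correlations by 100000 permutations. Likeness was ranked over protein-coding genes with a mean of at least 1 FPKM. From each list, genes past the threshold in either fit and the most abundant ones (up to 3) could be named. The fit was tested on simulated data. Alternatives covered the pseudocount, the filter, scaling, limma-voom on recovered reads, a replicate block, fits on fewer libraries and leaving out each library. The members, the lists and the choice of libraries were made with earlier results of these data known. Plots were made in Python 3.11.15 with matplotlib 3.10.9.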

Additional observations from a re-analysis of the deposited data

How the results depend on the processing

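Of 907 alternative values of the members' log2 differences, 876 kept their sign and side of the threshold, 20 turned sign and 11 passed it. Leaving out libraries of groups outside a comparison cannot move its estimate. Nor can another filter or the replicate block with all libraries. The sign of many of these values was therefore fixed in advance, and the count overstates how stable they are. Of 224 alternative counts and permutation values, 215 stayed, 5 counts moved and 4 values turned sign. The cause was not tested for those that moved or turned. Many of the counts were 0 in fits where few of all genes passed, so this number too overstates stability. With the HFD libraries only, the permutation has 20 arrangements, too few for a two-sided p under 0.05. With 1 library left out, between 0 and 5 members passed in KO chow against WT chow, 0 and 3 in HFD against chow in WT, 0 and 3 for the interaction, and 0 in the other comparisons. The upper ends came without WT chow 1. In HFD against chow in KO, 2 members passed with 10 libraries scaled to TPM and 1 with 10 libraries and no KO chow 3, both settings chosen after seeing the data. TPM moved the median of all genes to −0.13 for KO HFD against WT HFD, 0.25 for KO chow against WT chow, −0.23 for HFD against chow in KO and 0.12 in WT.

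Hnf4a between labels was −0.11 with the HFD libraries only (exact permutation p = 0.5), and 0.20 to 1.91 with 1 library left out. Relative to the other 7 it was −0.19 with 10 and with 9 libraries and −0.19 to 0.87 with 1 library left out. For KO HFD against WT HFD, leaving out 1 library gave −0.34 to 0.079 for Foxa1, −0.29 to 0.16 for Foxa2, −0.016 to 0.34 for Foxa3, −0.51 to 0.40 for Onecut1 and −0.28 to 0.040 for Cebpa, and 9 libraries gave 0.047 for Onecut1. For HFD against chow in KO it gave −0.35 to 0.0945 for Foxa2 and −0.56 to 0.19 for Foxa3. For HFD against chow in WT it gave −0.014 to 2.59 for Foxa3, and 10 and 9 libraries both gave −0.033 for Hnf4a, −0.012 for Cebpa, −0.18 for Nr5a2 and −0.17 for Prox1.

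The replicate numbers did not pair the samples. Over 18 pairs of same-numbered libraries the deviations correlated at −0.50 to 0.13, and 2 pairs exceeded 0.1. With the replicate block 0 members passed in each comparison, and Hnf4a between labels was 1.28 (exact permutation p = 0.281). Onecut1, the lowest of the factors, spread most within groups, and the part of its few reads in that spread was not tested. Groups of 3 libraries leave wide intervals.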
